A study of Mus musculus with 6 samples.

Results

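The genes described here carry out the breakdown of the branched-chain amino acids leucine, isoleucine and valine: Bcat1, Bcat2, Bckdha, Bckdhb, Dbt, Bckdk, Ivd, Mccc1, Mccc2 and Acadsb. They are 10 of the 13283 genes in the deposited RNA-seq table, and all 10 were present. They were selected by their role in the pathway, from a list drawn up with the MICT1 KO against Scr values of these same libraries already known, so their differences between those groups are given as a description and support nothing further. RNA was measured in 6 cultures of BAT cells, an immortalized mouse brown preadipocyte line, which all carry Cas9, were differentiated to brown adipocytes and received 10 µM forskolin, an activator of adenylyl cyclase, for 6 h on Day 6 of differentiation. The 3 Scr cultures, whose genotype is labelled WT, had received a scrambled sgRNA. The 3 MICT1 KO cultures had received an sgRNA against the microprotein gene MICT1 and were pools of edited cells, not clones. The labels do not say which knockout pool each library came from or whether the cultures were independent, so the replicate error covers the spread among these 6 cultures of 1 line. MICT1 itself was not analysed here, and the labels were therefore not checked against its level.

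The first step of the pathway is reversible transamination, by BCAT1 in the cytosol and BCAT2 in mitochondria, which turns each amino acid into a branched-chain ketoacid. The branched-chain ketoacid dehydrogenase (BCKDH) complex then commits the carbon to oxidation. Its E1 component is built from BCKDHA and BCKDHB, its E2 core from DBT, and its E3 component, DLD, is shared with other ketoacid dehydrogenases, while the kinase BCKDK switches E1 off by phosphorylation and the phosphatase PPM1K removes that phosphate. Separate branches then carry leucine to acetyl-CoA and acetoacetate (IVD, then the biotin enzyme made of MCCC1 and MCCC2), isoleucine to acetyl-CoA and propionyl-CoA (ACADSB) and valine to propionyl-CoA. Brown fat is known for a high capacity to take up and oxidize these amino acids.

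The deposited values are normalized reads per gene. From the spacing of the low values, the libraries were estimated to hold 15445828 to 17925601 reads in genes, and the 10 genes were covered by 77 to 2134 reads per library. Across all genes tested, 56.9% of 12507 passed an adjusted p of 0.05 by limma-trend, with 28.3% lower and 28.5% higher in MICT1 KO, and the 2 groups of 3 libraries did not overlap at 62.0% of genes. The median log2 fold change over all genes tested was -0.0053. An exact two-sided test of 1 value between 3 and 3 libraries cannot give a p below 0.1, so p-values for single genes come from a fit that borrows its error from all genes. The adipocyte identity of the cultures differed between the groups and is given in full after the pathway. Values here are per culture, in which fewer cells of a type and less RNA per cell cannot be told apart.

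Of the 10 breakdown genes, 9 were lower and 1, Bcat1, was higher in MICT1 KO cells. The Scr and MICT1 KO libraries overlapped for none of them, and among all genes tested they did not overlap at 62.0%. All 10 passed the filter on low values. Against the background of 28.3% lower and 28.5% higher genes nothing is read from these counts, because the contrast was known when the genes were listed. At least a 2-fold difference was seen for 5 of the lower genes (Bcat2, Bckdhb, Bckdha, Mccc1 and Mccc2) and for Bcat1. Of all 12507 genes tested, 720 were lower and 999 higher by at least 2-fold. The median log2 fold change of the 10 genes was -0.96.

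**Figure D1:**
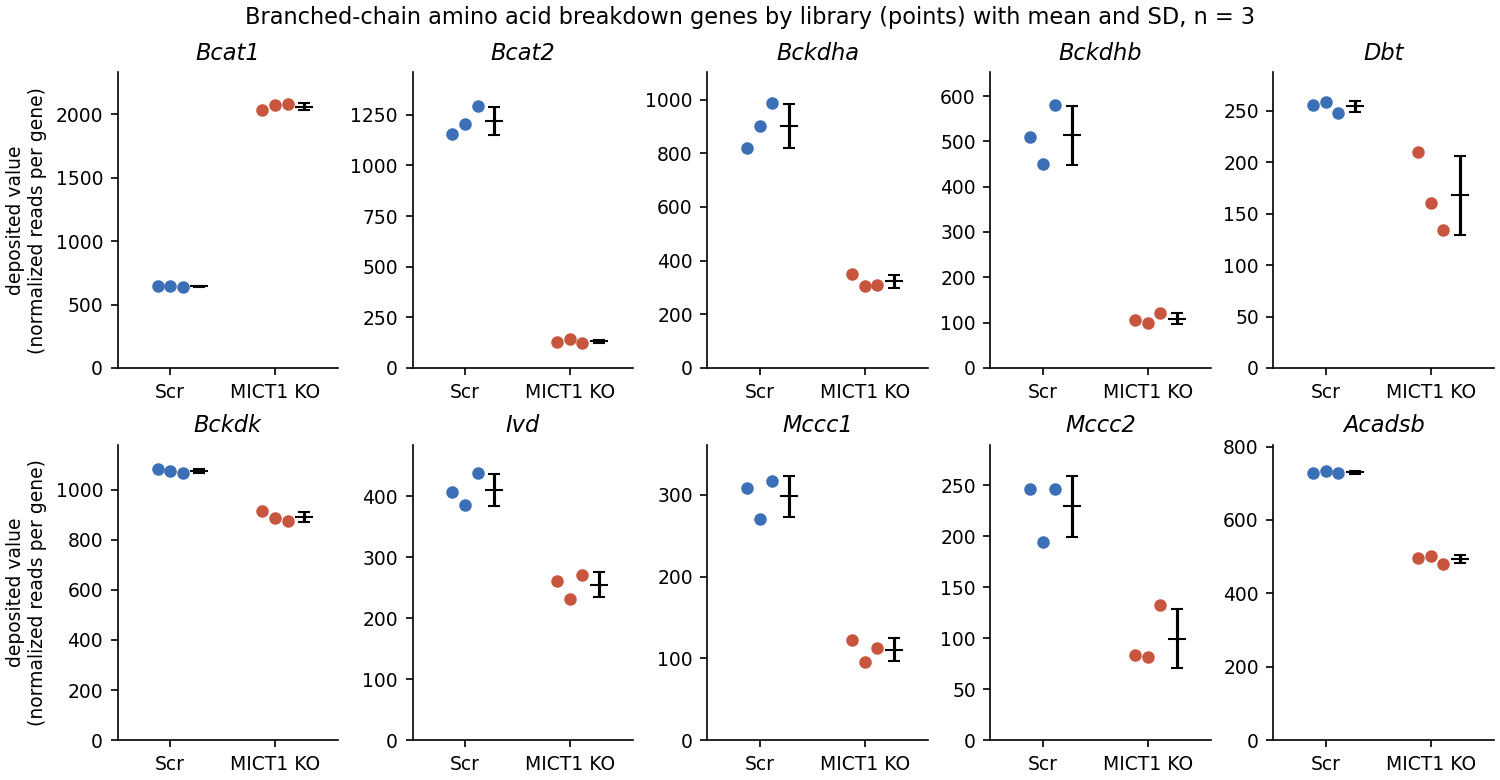
Deposited values (normalized reads per gene, linear axes from 0) of the 10 breakdown genes in each of 3 Scr and 3 MICT1 KO libraries, shown as points, with the mean and SD beside them. Only Bcat1 sits higher in MICT1 KO, at 2034 to 2082 against 640.1 to 649.8, and the groups are apart in all 10 panels.

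The aminotransferases moved in opposite directions. Bcat2 on chromosome 7 (GRCm38, positions 45570153 to 45589711, plus strand), which encodes the mitochondrial enzyme, was at 1156, 1206 and 1293 in Scr and at 125.8, 141.2 and 125.4 in MICT1 KO. Every MICT1 KO library was thus far under the lowest Scr library. The fitted log2 fold change was -3.21 ± 0.10 (SE, n = 3 per group), a 9.26-fold lower level, and the gene ranked 79 from the lowest value among the 12507 genes tested. On the opposite strand 622 bases of its exons are shared with the antisense transcript 0610005C13Rik, which is not among the genes listed. The treatment of strand in the counting is not given, so the part of that transcript in these values could not be checked.

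Bcat1 on chromosome 6 (144993835 to 145076184, minus strand), which encodes the cytosolic enzyme, was at 649.8, 644.3 and 640.1 in Scr and at 2034, 2071 and 2082 in MICT1 KO. Libraries of the same group lay close together and the groups were well apart. The log2 fold change was 1.68 ± 0.066 (SE), a 3.20-fold higher level. An antisense transcript, Gm26666, shares 337 exon bases with Bcat1. It is not among the genes listed either, and its part could not be checked.

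Because genes of different length collect different numbers of reads, the aminotransferases were also compared per kilobase of exon and relative to the library total (RPKM). The level of Bcat2 was 19.1 RPKM (mean of 3, range 18.4 to 20.2) in Scr and 2.06 ± 0.146 RPKM (SD, n = 3) in MICT1 KO, while that of Bcat1 was 4.23 ± 0.0903 RPKM in Scr and 13.6 ± 0.249 RPKM in MICT1 KO. In the Scr libraries Bcat2 made up 81.0%, 81.7% and 82.8% of the summed level of both, and in MICT1 KO it made up 12.9%, 14.0% and 12.6%. In Scr cells the larger part of aminotransferase RNA per length was thus that of the mitochondrial enzyme, and in MICT1 KO cells that of the cytosolic one. The sum of both levels was 23.3 ± 0.966 RPKM in Scr and 15.6 ± 0.333 RPKM in MICT1 KO, so the higher Bcat1 level did not make up the lower Bcat2 level. With exon lengths from the smaller basic transcript set the share was 86.4% and 17.6%.

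**Figure D2:**
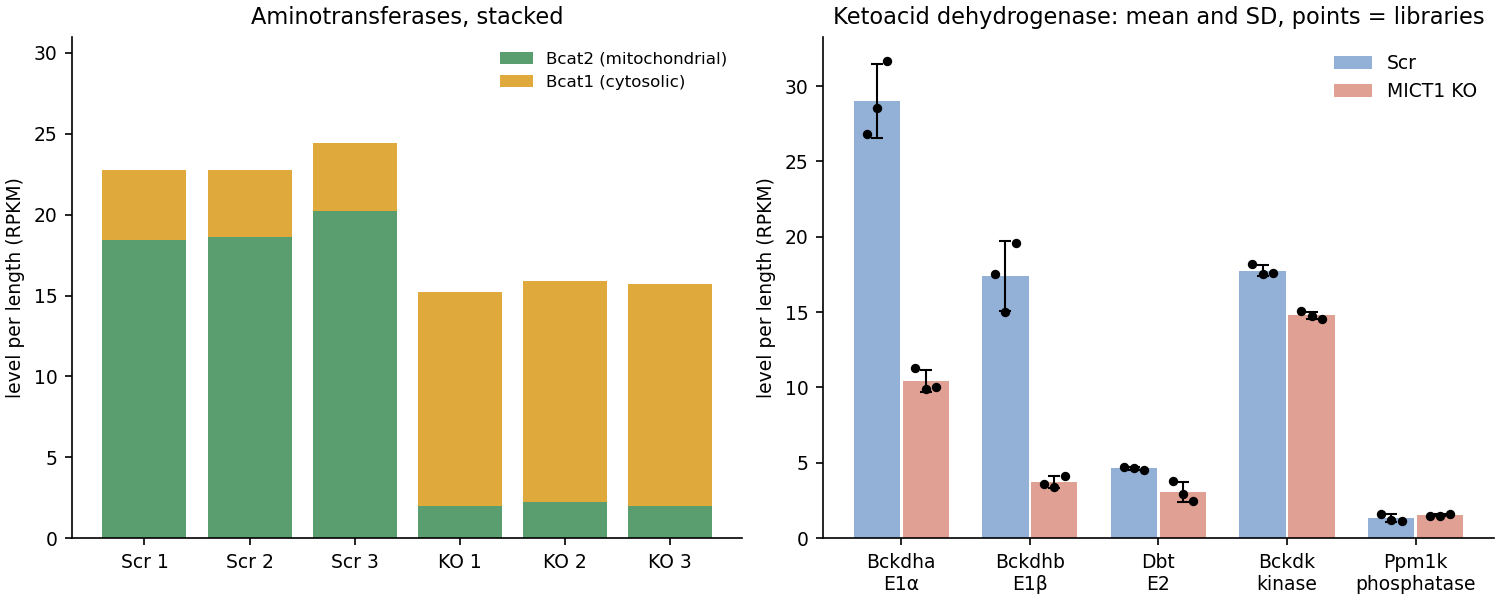
Levels per exon length (RPKM, linear axes from 0): left, Bcat2 and Bcat1 stacked for each library; right, the subunits, kinase and phosphatase of the BCKDH complex as mean and SD of 3 libraries, with the libraries as points. The Bcat2 part is 18.4 to 20.2 RPKM in Scr and 1.96 to 2.22 RPKM in MICT1 KO, and Bckdk is close in both groups while Bckdha and Bckdhb are not.

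The sequences before the starts of these genes are shown for the aminotransferases, which differed in opposite directions, and for 1 gene of each enzyme complex downstream, Bckdhb and Mccc2. They are bases upstream of a RefSeq start, written 5′ to 3′ on the strand of the gene. Bases in a GENCODE exon of the gene, or from the RefSeq gene start onward where it falls in the window, were left out. RefSeq exons were not checked. The Bcat2 window lies inside the RefSeq gene, which begins at 45568967, and ends just before the GENCODE start at 45570153. Capitals mark matches, on either strand, to 8 short motifs: the CCAAT box spelled as its name, the GC box spelled GGGCGG, the TATA box spelled TATAAA, the nuclear receptor half-site spelled AGGTCA, the CRE half-site spelled TGACG, the full CRE spelled TGACGTCA, which holds that half-site, the CEBP motif spelled TTGCNNAA and the E-box spelled CACGTG. The windows lie on GRCm38.p6 at chr6:145076185-145076407 on the minus strand for Bcat1, chr7:45569903-45570152 on the plus strand for Bcat2, chr9:83924887-83925110 on the plus strand for Bckdhb and chr13:100015640-100015889 on the minus strand for Mccc2.
Bcat1: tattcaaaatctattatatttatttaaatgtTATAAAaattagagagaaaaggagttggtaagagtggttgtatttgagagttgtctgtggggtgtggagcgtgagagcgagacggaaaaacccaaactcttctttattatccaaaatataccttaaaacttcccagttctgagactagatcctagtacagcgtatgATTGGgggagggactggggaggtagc
Bcat2: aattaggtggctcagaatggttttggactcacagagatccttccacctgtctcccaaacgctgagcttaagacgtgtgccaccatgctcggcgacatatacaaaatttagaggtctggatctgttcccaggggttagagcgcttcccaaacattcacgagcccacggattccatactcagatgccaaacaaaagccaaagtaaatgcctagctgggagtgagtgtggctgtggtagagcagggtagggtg
Bckdhb: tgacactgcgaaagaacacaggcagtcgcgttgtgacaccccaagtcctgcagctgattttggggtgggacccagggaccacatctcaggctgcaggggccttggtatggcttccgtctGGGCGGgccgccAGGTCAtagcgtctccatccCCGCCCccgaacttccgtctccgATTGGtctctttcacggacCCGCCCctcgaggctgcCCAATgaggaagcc
Mccc2: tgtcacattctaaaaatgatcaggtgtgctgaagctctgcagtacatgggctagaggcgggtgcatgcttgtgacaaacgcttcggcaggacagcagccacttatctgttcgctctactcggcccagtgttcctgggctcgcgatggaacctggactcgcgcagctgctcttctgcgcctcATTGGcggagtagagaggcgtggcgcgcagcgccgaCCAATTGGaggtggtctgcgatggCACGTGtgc

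The Bcat1 window shown held a CCAAT box 53 bases before the start and a TATA box 219 bases before it. Both distances run to the RefSeq start of the whole 250 bases, of which the last 27 were left out above. Over the whole 250 bases its GC content was 37.6%, under the median of 52.4% over all mouse promoter windows. The Bcat2 window held none of the 8 motifs. In the Bckdhb window shown, with 63.2% GC over the whole 250 bases, there were 2 CCAAT boxes, 3 GC boxes and 1 nuclear receptor half-site. The half-site lay 119 bases before the RefSeq start of that whole window, of which the last 26 bases were left out above. The Mccc2 window held 3 CCAAT boxes, of which 2 overlap as CCAATTGG, and an E-box 9 bases before the start. Bcat1, Bcat2 and Bckdhb each have another RefSeq start, whose window is not shown. That of Bcat1, with 56.4% GC, held a nuclear receptor half-site and no CCAAT or TATA box. That of Bckdhb, with 36.4% GC, held none of the 8 motifs, nor did that of Bcat2.

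Promoter windows of 250 bases were found in RefSeq for 9 of the 10 genes, 12 windows in all because some genes have more than 1 start, and Dbt is named only. They were counted whole, also where they overlap the annotated gene itself. The second Bcat2 window lies in GENCODE exons of the gene over all 250 bases. A CCAAT box was present in 6 of the 12 windows and in 33.85% of 32851 mouse windows of that length. The corresponding numbers were 3 of 12 and 32.74% for the GC box, 2 of 12 and 12.37% for the TATA box, and 2 of 12 and 14.02% for the nuclear receptor half-site. A CRE half-site was found in 1 window (Acadsb) against 17.77% of all windows, a CEBP motif in 1 (Acadsb) against 9.56% and an E-box in 1 (Mccc2) against 6.02%. The full CRE was in 0 of the 12 windows and in 1.55% of all windows. Such matches describe letters only: neither binding nor the start used in these cells was measured.

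The catalytic subunits of the BCKDH complex were all lower in MICT1 KO cells, to unequal degrees. Bckdhb on chromosome 9 (83925145 to 84124240, plus strand), the E1 beta subunit, was at 510.4, 450.5 and 580.0 in Scr and at 106.8, 99.0 and 121.3 in MICT1 KO. Its log2 fold change was -2.22 ± 0.14 (SE), a 4.67-fold lower level with no overlap between the groups.

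Bckdha on chromosome 7 (25629946 to 25658981, minus strand), the E1 alpha subunit that carries the phosphorylation sites, was at 820.0, 901.0 and 986.0 in Scr and at 351.8, 306.6 and 309.9 in MICT1 KO. All MICT1 KO libraries were below every Scr library, and the log2 fold change was -1.48 ± 0.098 (SE). On the opposite strand 1171 bases of its exons are shared with B3gnt8, whose values were 8.90 to 22.2 in every library. How the counting treated strand is not given in the sources used here.

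Dbt on chromosome 3 (116513070 to 116549981, plus strand), the E2 core, was at 256.2, 258.6 and 248.3 in Scr and at 209.7, 160.2 and 133.7 in MICT1 KO. The MICT1 KO libraries were more spread than the Scr libraries, and the first of them was nearest to Scr. The log2 fold change was -0.62 ± 0.16 (SE), and leaving out 1 library at a time gave -0.79 to -0.47.

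Per length, Bckdha was above Bckdhb and Bckdhb above Dbt in the means of both groups, but the levels lay closer together in MICT1 KO. In Scr cells Bckdha was at 29.0 ± 2.47 RPKM (SD, n = 3), Bckdhb at 17.4 ± 2.30 RPKM and Dbt at 4.64 ± 0.113 RPKM. In MICT1 KO cells the levels were 10.4 ± 0.746, 3.70 ± 0.392 and 3.07 ± 0.686 RPKM, and those of Bckdhb and Dbt overlapped. In Scr the ratio of Bckdhb to Dbt was 3.70, 3.23 and 4.33 and in MICT1 KO it was 0.944, 1.15 and 1.68, so E1 beta RNA came close to the E2 level. The ratio of Bckdha to Bckdhb was 1.68 ± 0.195 in Scr and 2.83 ± 0.364 in MICT1 KO.

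Bckdk on chromosome 7 (127904082 to 127910221, plus strand), the inhibitory kinase, differed least. It was at 1081, 1075 and 1065 in Scr and at 914.3, 886.1 and 874.8 in MICT1 KO, without overlap, and the log2 fold change was -0.27 ± 0.070 (SE). Relative to its substrate subunit, the level per length of Bckdk was 0.678, 0.613 and 0.555 of that of Bckdha in Scr, against 1.34, 1.49 and 1.45 in MICT1 KO. Kinase RNA was thus below E1 alpha RNA in every Scr library and above it in every MICT1 KO library. Protein and phosphorylation of the complex were not measured in these files.

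Ppm1k, the phosphatase that opposes the kinase, did not pass the test. Its values were 156.3, 122.4 and 111.9 in Scr against 148.7, 143.3 and 159.6 in MICT1 KO, which overlap, and gave a log2 fold change of 0.22 (95% interval -0.14 to 0.58, adjusted p = 0.291 by limma-trend with Benjamini-Hochberg adjustment). Dld, the shared E3 component, was at 3680, 3746 and 3793 in Scr and at 2062, 1814 and 1900 in MICT1 KO. It fell by 0.96 ± 0.060 (SE) on the log2 scale (adjusted p = 1.7e-11 by limma-trend with Benjamini-Hochberg adjustment).

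In the leucine branch, both subunits of 3-methylcrotonyl-CoA carboxylase were lower. Mccc1 on chromosome 3 (35959312 to 36000678, minus strand), the biotin-carrying subunit, was at 308.6, 269.8 and 316.5 in Scr and at 122.9, 95.9 and 113.0 in MICT1 KO, a log2 fold change of -1.43 ± 0.15 (SE). Mccc2 on chromosome 13 (99948530 to 100015639, minus strand), the other subunit, was at 246.3, 194.7 and 246.3 in Scr and at 83.9, 81.1 and 132.7 in MICT1 KO, a log2 fold change of -1.23 ± 0.19 (SE). The groups did not overlap for either gene, though the third MICT1 KO library was higher for Mccc2 than the other two, and without it the value was -1.45. The ratio of Mccc1 to Mccc2 per length was 0.335 ± 0.0177 in Scr and 0.298 ± 0.0786 in MICT1 KO, with overlapping libraries. This ratio depends on the exon lengths used. With the basic transcript set Mccc1 was at 7.43 RPKM and Mccc2 at 6.60 RPKM in Scr, against 2.76 and 2.87 RPKM in MICT1 KO. A shortage of Mccc1 RNA relative to Mccc2 is therefore not read from it. An antisense transcript, Mccc1os, shares 198 exon bases with Mccc1 and was at 0.989 to 8.14 over the 6 libraries.

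The acyl-CoA dehydrogenases of the leucine and isoleucine branches differed less. Ivd on chromosome 2 (118861954 to 118882909, plus strand), isovaleryl-CoA dehydrogenase, was at 407.5, 385.6 and 438.6 in Scr and at 260.3, 231.8 and 271.6 in MICT1 KO, a log2 fold change of -0.69 ± 0.12 (SE). Acadsb on chromosome 7 (131410601 to 131448944, plus strand), which acts on the isoleucine product, was at 727.0, 733.2 and 728.6 in Scr and at 496.7, 502.6 and 481.0 in MICT1 KO, a log2 fold change of -0.56 ± 0.084 (SE). The groups were apart for both genes.

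The order of the 10 genes by level per length also differed between the groups. In Scr cells it ran from Bckdha and Bcat2 through Bckdk and Bckdhb, whose libraries overlapped, and Acadsb to Mccc2, Dbt, Ivd and Bcat1, neighbours that overlapped in turn, with Mccc1 lowest at 1.67 ± 0.158 RPKM (SD, n = 3). In MICT1 KO cells Bckdk was highest at 14.8 ± 0.245 RPKM, then Bcat1 and Bckdha. The following genes were Acadsb, Bckdhb, Dbt, Ivd, Mccc2 and Bcat2, in which each overlapped its neighbour, although Acadsb was above Dbt and all later genes in every library, and Mccc1 was again lowest at 0.619 ± 0.0739 RPKM. Orders between genes depend on the exon length used. With the basic transcript set Bcat2, at 29.9 RPKM, came before Bckdha, at 29.0 RPKM, in Scr, and Mccc1 moved from place 10 to place 5 there, whereas differences between groups within a gene do not depend on its length.

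**Figure D3:**
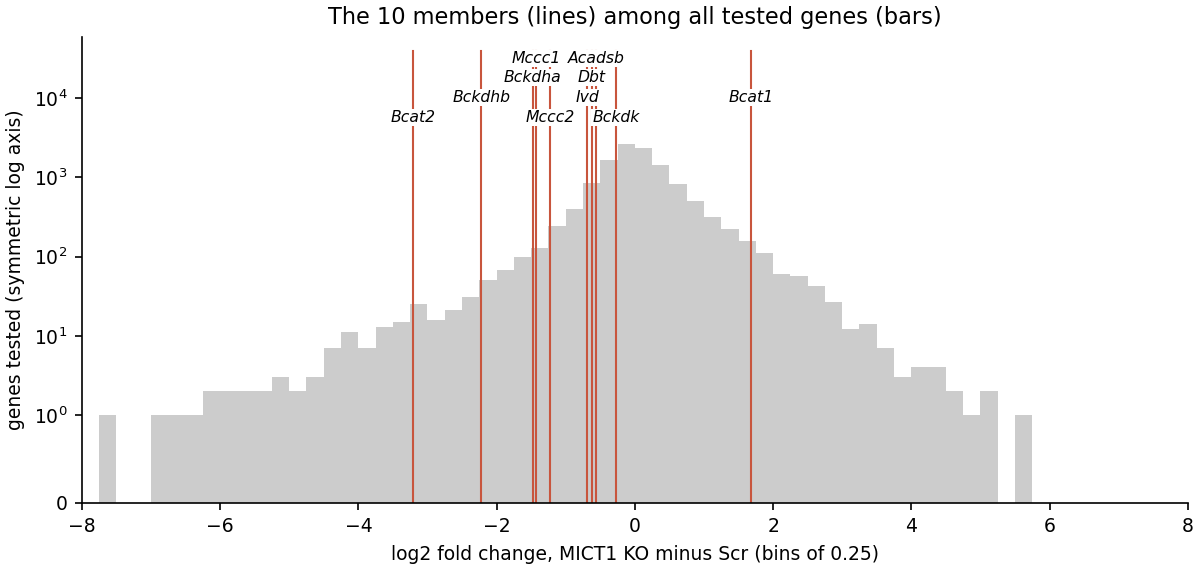
Log2 fold changes (MICT1 KO minus Scr, bins of 0.25) of the 12507 genes tested as grey bars, with their number on a symmetric log axis, and the 10 breakdown genes as red lines. Bcat2 at -3.21 and Bckdhb at -2.22 lie toward the lower end, Bcat1 at 1.68 lies on the higher side, and Bckdk at -0.27 lies among the bulk of genes.

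The other genes of the pathway were taken from a list of 34 made by role: remaining enzymes, carriers, cofactor supply, electron transfer and 1 transcription factor. All 34 passed the filter. Of these 25 fell, 3 rose and 6 did not pass the test (adjusted p under 0.05, limma-trend with Benjamini-Hochberg adjustment over all 12507 genes), against 28.3% lower and 28.5% higher among all genes. At least a 2-fold fall was seen for 8 genes and a 2-fold rise for 0, beside 720 and 999 of all 12507 genes. The groups did not overlap for 29 of 34 genes, against 62.0% of all genes, and the median log2 fold change was -0.65. Under a limit of 1.8-fold and an unadjusted p of 0.05, 12 of the 34 were lower and 0 higher. Of the 10 breakdown genes 5 were lower and 1 higher under this limit. The share of all genes under it is not given here, and the RPKM condition of the study was not applied.

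In the leucine branch beyond the carboxylase 2 genes are described, and the isoleucine branch adds 3. Auh, which hydrates the product of the carboxylase, fell by 0.95 ± 0.11 (SE) on the log2 scale, with libraries at 475.5 to 522.0 in Scr and 236.4 to 285.1 in MICT1 KO, and Oxct1, which activates acetoacetate for use, fell by 0.48. Among the isoleucine genes, Echs1, the enoyl-CoA hydratase, fell by 1.22 ± 0.092 (SE) and Acat1, the thiolase, fell by 0.68 ± 0.071 on the log2 scale, and Hsd17b10, the dehydrogenase between them, fell by 0.54.

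The valine branch held the gene with the largest fall of this list, Aldh6a1, which encodes methylmalonate semialdehyde dehydrogenase. It was at 1997, 2080 and 2414 in Scr and at 308.9, 257.1 and 334.8 in MICT1 KO. The groups were far apart and the log2 fold change was -2.85 ± 0.097 (SE, adjusted p = 8.3e-16 by limma-trend with Benjamini-Hochberg adjustment). Hibch, the hydrolase upstream of it, fell by 1.25 ± 0.15 (SE) and Hibadh, the dehydrogenase, fell by 0.59 ± 0.096 on the log2 scale. Acad8, isobutyryl-CoA dehydrogenase and the first enzyme of this branch after BCKDH, rose instead. It was at 274.0, 276.2 and 259.5 in Scr and at 354.6, 357.2 and 389.7 in MICT1 KO, a log2 fold change of 0.44 ± 0.11 (SE, adjusted p = 0.0022 by limma-trend with Benjamini-Hochberg adjustment). Among the acyl-CoA dehydrogenases that follow BCKDH, the valine enzyme was thus higher while Ivd and Acadsb were lower.

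All 4 genes that carry propionyl-CoA to the citric acid cycle fell. Pcca and Pccb, the subunits of propionyl-CoA carboxylase, had log2 fold changes of -1.29 ± 0.16 and -1.05 ± 0.12 (SE), and Mmut, the mutase, of -0.83 ± 0.092. Mcee, the epimerase, was covered by few reads, with 58.4, 69.5 and 96.7 in Scr against 39.1, 41.1 and 47.7 in MICT1 KO (log2 fold change -0.77, adjusted p = 0.017 by limma-trend with Benjamini-Hochberg adjustment), and without the third Scr library it no longer passed (-0.57, adjusted p = 0.117 by the same test).

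Genes that supply cofactors were lower in part. For lipoate, which the E2 cores carry, Lias and Lipt2 fell, with log2 fold changes of -0.97 ± 0.096 and -0.91 ± 0.17 (SE), and Lipt1 did not pass the test. For biotin, which the carboxylases carry, Hlcs fell by 0.62 ± 0.18 and Btd did not pass. For cobalamin, used by the mutase, Mmaa, Mmab and Mmachc fell (log2 fold changes of -0.71 ± 0.20, -0.74 ± 0.13 and -0.61 ± 0.14) and Mmadhc did not pass. The electron transfer genes Etfa, Etfb and Etfdh, which take electrons from the acyl-CoA dehydrogenases, fell, with log2 fold changes of -0.48, -0.48 and -0.43.

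The carriers were split. Slc25a44, the mitochondrial carrier of branched-chain amino acids known from brown fat, was at 1183, 1057 and 1106 in Scr and at 1150, 1058 and 1056 in MICT1 KO. These ranges overlap, and the log2 fold change was -0.035 (95% interval -0.19 to 0.12, adjusted p = 0.700 by limma-trend with Benjamini-Hochberg adjustment). At the plasma membrane, Slc43a1 and Slc7a8 fell, with log2 fold changes of -1.56 ± 0.28 and -1.25 ± 0.25 (SE). Slc7a5 and Slc3a2, which together form a large neutral amino acid exchanger, rose by 0.22 ± 0.067 and 0.29 ± 0.062, and Slc43a2 did not pass the test. Without the third Scr library the rise of Slc7a5 no longer passed the test (0.14, adjusted p = 0.0730 by limma-trend with Benjamini-Hochberg adjustment).

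Klf15 encodes a transcription factor known to activate genes of branched-chain amino acid breakdown, Bcat2 among them. It was at 126.6, 125.1 and 117.0 in Scr and at 21.0, 25.3 and 30.1 in MICT1 KO. The groups did not overlap and the log2 fold change was -2.24 ± 0.25 (SE, adjusted p = 1.8e-07 by limma-trend with Benjamini-Hochberg adjustment). Its part in the levels of the other genes was not tested.

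**Figure D4:**
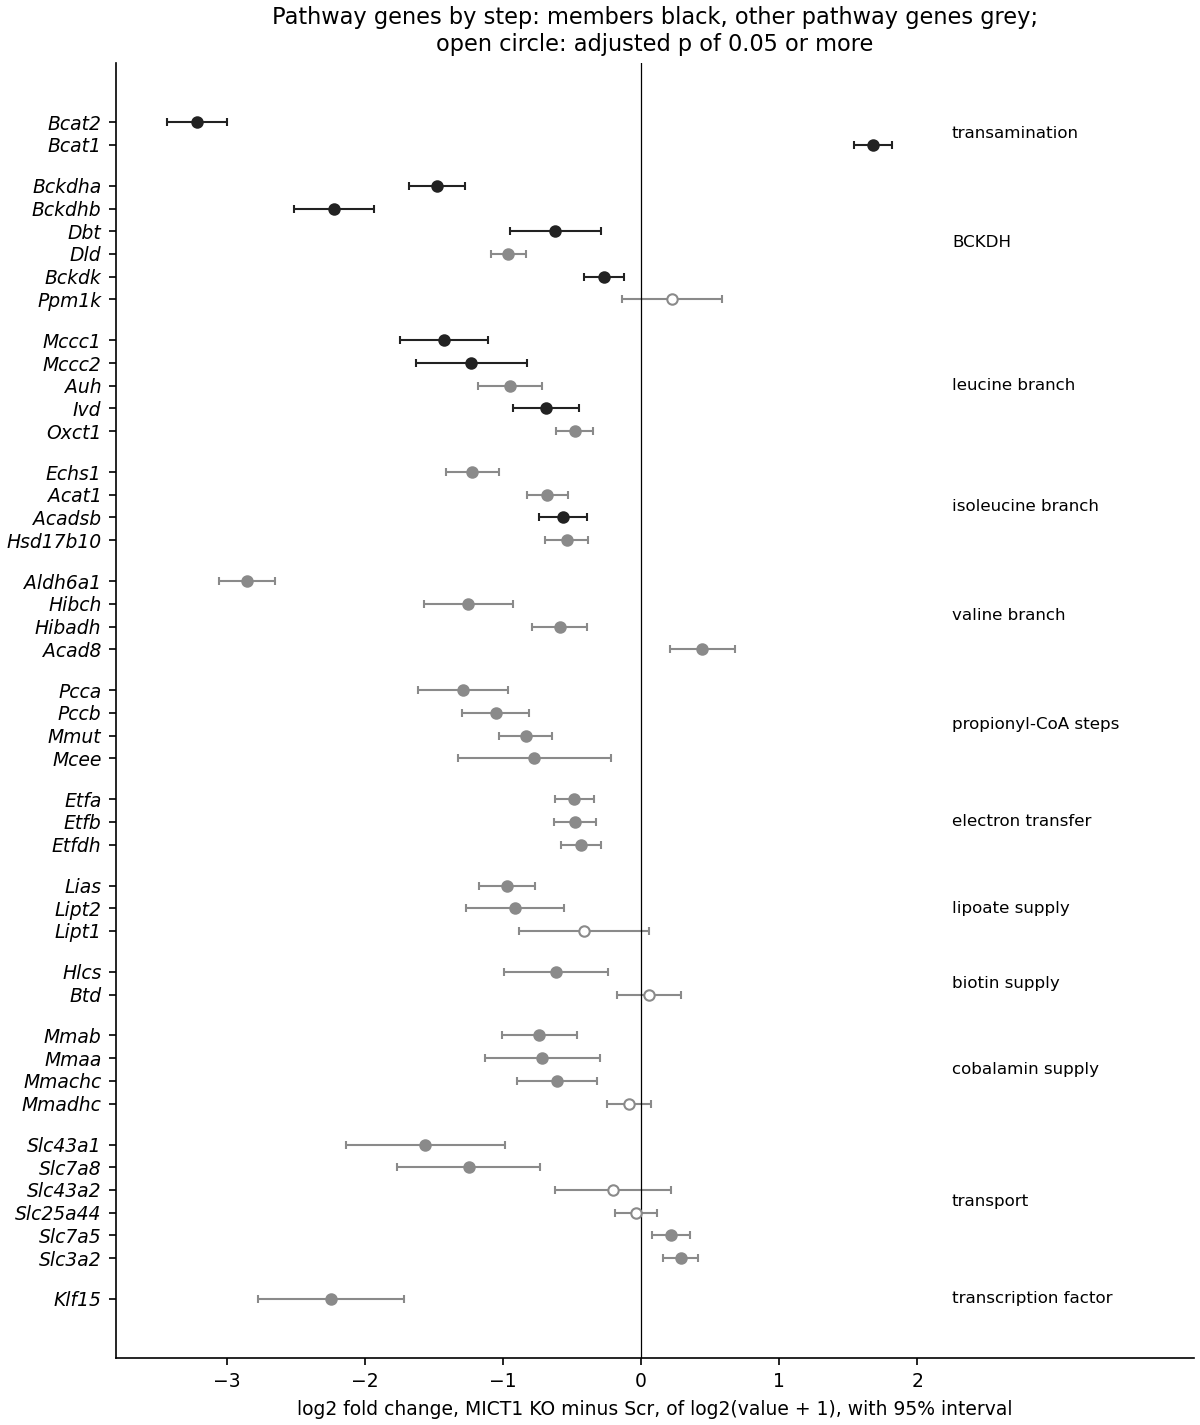
Log2 fold change (MICT1 KO minus Scr, of the deposited value plus 1) with its 95% interval for the 10 breakdown genes in black and the 34 other pathway genes in grey, ordered by step, and open circles did not pass an adjusted p of 0.05. The points lie left of 0 in every enzyme branch, with Bcat1 at 1.68 and Acad8 at 0.44 as the enzymes to the right that are drawn filled.

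The related pyruvate and oxoglutarate dehydrogenase complexes share Dld and the E1 to E3 plan. Of 12 genes for them 9 fell, 2 rose and 1 did not pass, against 28.3% lower and 28.5% higher among all genes tested. Their median log2 fold change was -0.43, beside -0.96 for the 10 breakdown genes. The 12 include the kinases and phosphatases of pyruvate dehydrogenase. Bckdk is the only regulator among the 10, so the lists are unlike sets. The difference between the lists was not tested. The log2 fold changes were -0.26 for Pdha1, -1.16 for Pdhb, -0.68 for Dlat, -0.60 for Pdhx, -0.19 for Ogdh and -0.15 for Dlst, and among the regulators -0.83 for Pdk1, -1.23 for Pdk2, 0.68 for Pdk3, -0.87 for Pdk4, 0.58 for Pdp1 and -0.071 for Pdp2, which did not pass.

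Markers of the cell types that the cultures could hold differed between the groups for some lists and not for others. Of 11 adipocyte markers 10 were in the table and 9 could be tested. All 9 fell, against 28.3% lower among all genes tested, with a median log2 fold change of -3.33. Their summed value was 121634 to 145003 in Scr and 14533 to 20938 in MICT1 KO, or 10.9% to 15.6% of the Scr mean. Fabp4 and Lpl, a fatty acid binding protein and lipoprotein lipase, made up most of this sum and fell, with log2 fold changes of -3.33 and -2.44. Ucp1, the uncoupling protein that defines brown adipocytes, was low in all libraries, at 20.8 to 30.5 in Scr and 1.05 to 9.33 in MICT1 KO. Ppargc1a, at 1.04 to 15.8 over the 6 libraries, was too low to test, and Cidea was not analysed here.

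Of 8 preadipocyte or fibroblast markers 7 were in the table. Of these 4 rose, 1 fell and 2 did not pass, against 28.5% higher and 28.3% lower among all genes tested. The median log2 fold change of the 7 markers was 0.48. Their summed value was 45152 to 51996 in Scr and 69412 to 73427 in MICT1 KO. Dcn, the matrix proteoglycan decorin, rose most, from 277.8 to 409.5 in the Scr libraries to 9571 to 9836 in the MICT1 KO libraries, with a log2 fold change of 4.75. Ly6a, Col1a1 and Pdgfrb also rose (1.39, 0.77 and 0.48), Pdgfra fell by 0.19, and Col1a2 and Col3a1 did not pass the test. The other lists were at low values. The muscle markers Acta1 and Mylpf summed to 24.1 to 35.6 in Scr and 17.9 to 27.0 in MICT1 KO, the macrophage markers Csf1r and Cd68 to 81.4 to 133 and 101 to 142, and the endothelial marker Cdh5, which rose, was at 5.93 to 12.1 and 25.9 to 33.4. The remaining markers of these 3 lists were not analysed here.

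Set beside these markers, the summed value of the 10 breakdown genes in MICT1 KO was 72.9% to 75.0% of the Scr mean, that of the 34 other pathway genes 70.9% to 75.3% and that of the related dehydrogenase genes 74.7% to 76.9%. The sum of the breakdown genes rests on Bcat1: without it the other 9 genes stood at 44.5% to 47.5% of the Scr mean in MICT1 KO. The part of the lower adipocyte markers and the higher fibroblast markers in the differences of the breakdown genes was not tested, and with the cell state and the genotype differing between the same libraries they cannot be told apart here.

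**Figure D5:**
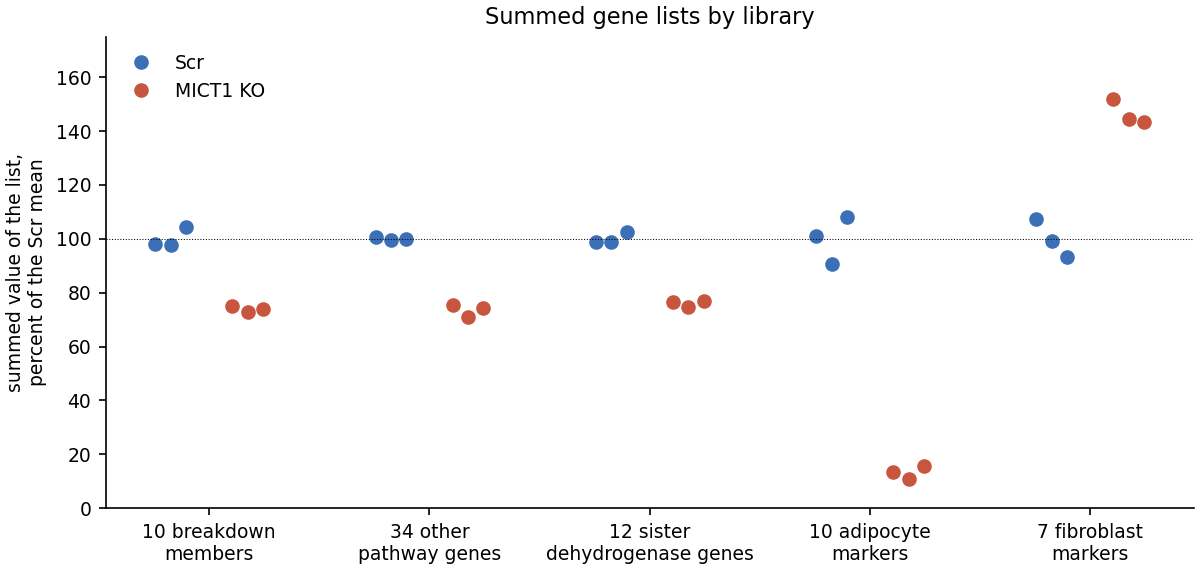
Summed deposited values of 5 gene lists in each library, as percent of the mean of the 3 Scr libraries (dotted line at 100). The breakdown genes (Bcat1 included), other pathway genes and related dehydrogenase genes sit at 70.9% to 76.9% in MICT1 KO, the adipocyte markers at 10.9% to 15.6% and the fibroblast markers at 143% to 152%.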

How the data were processed

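The deposited table holds 1 column per library, and its values are a normalized signal per gene made by the authors: the methods name an alignment to mm10 in Partek, and the submitters' processing notes list Partek, STAR and DESeq2 with no role. The gene annotation, counter and normalization are not given in the sources used here. Within a tolerance of 0.01, 88.7% to 90.4% of values under 20 were whole multiples of 1 step per library, from which size factors of 0.949 to 1.08 and the read totals were estimated. The methods name a stranded total RNA kit and the labels name Novogene for the libraries. Only genes above 0 in all 6 libraries are listed, so a gene lost in 1 group would not be seen. No column was left unused (0).

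The 12507 of 13283 genes that reached 10 in 3 or more libraries were fitted as log2(value + 1) with limma-trend (limma 3.58.1, R 4.3.3), MICT1 KO minus Scr without covariates, with Benjamini-Hochberg adjustment over all genes tested and a threshold of 0.05. Fold changes are on that scale, which understates those of low genes. Functions were tested on simulated data. Levels per length (RPKM) used the exon union of GENCODE vM21 and the library sum of values. Motifs were searched in RefSeq promoter windows (250 bases before each start) with Python 3.11.15, and figures were drawn with matplotlib 3.10.9. Alternatives were pseudocounts of 0.5 and 5, library-sum scaling, no filter, a mean of at least 4 CPM, limma-voom, a block for the replicate number, leaving out 1 library at a time, and the study's limit of 1.8-fold. The study's further condition on RPKM was not applied with that limit. Exon lengths of the basic set were added after seeing the data.

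The breakdown genes, the other lists and the tests were chosen with earlier results of these data known. Named were all breakdown genes, other pathway genes past the threshold with at least a 1.5-fold change, Dld, Ppm1k and Slc25a44, all related dehydrogenase genes and the highest markers. Other genes were named after their values were seen. Of the pathway, 1 gene is not reported here.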

Additional observations from a re-analysis of the deposited data

How the results depend on the processing

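The 10 breakdown genes kept their direction and their side of the threshold in all 130 combinations of gene and alternative (13 alternatives). With a 1.8-fold limit and an unadjusted p under 0.05, 5 of them were lower in place of 9, and of the 34 other pathway genes 12 were lower in place of 25 and 0 higher in place of 3, which follows from the added limit on size. No sign of pairing by replicate number was seen: deviations of same-numbered libraries correlated at -0.024, -0.015 and 0.064, which cannot exclude a pairing. With a replicate block the counts were still 9 and 1 among the breakdown genes and 25 and 3 among the others. Leaving out 1 library at a time gave medians of -1.09 to -0.86 for the breakdown genes and -0.71 to -0.59 for the others. Among the others, 436 combinations were as reported and 4 were not. Mcee and Slc7a5 no longer passed without Scr replicate 3, and 2 genes that had not passed changed sign when a library was left out, with ranges of -0.0023 to 0.11 for Btd and -0.076 to 0.0079 for Slc25a44. The causes were not tested. With a mean of at least 4 CPM, which leaves fewer genes in the test, 23 others were lower. Depth limits genes such as Klf15, Slc43a1 and Mcee, with as few as 22, 23 and 39 reads in 1 library, and Lipt1, with 52 to 88 reads.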
